A study of Mus musculus with 12 samples.

Results

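H3K9me2 was mapped over 10 genes of the presynaptic release machinery in mouse prefrontal cortex: Snap25, Syt1, Syt4, Syt9, Syt10, Rims1, Rims2, Pclo, Unc13c and Syn3. A region, that is an interval with more ChIP reads than background in at least 1 library, was counted for a gene when the deposited tables named that gene as overlapping it or, where none overlapped, as its closest gene. This gave 45 of 33787 regions in the table of FAD against WT and 59 of 43680 regions in the table of FAD-BIX against FAD. Of the 10 genes, 8 had at least 1 region in each table, and Syt4 and Syn3 had none. The groups were C57BL/6 mice of 5 to 6 months: wild type (WT), a familial Alzheimer's disease model (FAD), and the same model after treatment with BIX01294 (FAD-BIX), which inhibits EHMT1 and EHMT2, the enzymes that write this mark. All 3 groups had 2 mice, and each mouse gave a ChIP and an input library from punched prefrontal cortex. Which mutations the FAD mice carry, the dose and length of BIX01294 treatment and the sex of the mice are not given in the sources used here. The FAD-BIX mice carried the FAD mutations too, and WT mice given BIX01294 are not analysed here.

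Neurotransmitter release starts when an action potential opens calcium channels at the active zone, the patch of presynaptic membrane where vesicles dock. Scaffold proteins hold vesicles and channels together there, priming proteins ready the fusion complex, SNARE proteins pull the membranes together, and synaptotagmins sense calcium and trigger fusion. Dimethylation of histone H3 at lysine 9 is written largely by EHMT1 and EHMT2 and marks repressed chromatin, whereas most of these genes are active in neurons. ChIP of this mark does not measure expression, and cannot tell a mark in neurons from one in other cells of the punch.

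The ChIP libraries held 20.4 to 26.6 M reads and the inputs 13.9 to 23.8 M. The library labelled FAD 1 stood apart from the other libraries of FAD and FAD-BIX mice, and on 1 readout it lay with WT. In the 3 regions of Thy1, a gene whose promoter drives many neuronal transgenes, it held 20 ChIP reads, against 12281 in FAD 2 and 8084 and 8280 in FAD-BIX, and its input was likewise the lowest, with 57 reads against 5518 in FAD 2 and 5928 and 2826 in FAD-BIX. In the 1 Thy1 region of the first table it held 4 ChIP reads, where WT had 5 and 2 and FAD 2 had 839. Whether its label is right was not settled, and each FAD mean below is over this library and FAD 2. Of 15 heart muscle genes, 7 had regions in the FAD and WT table. Their summed ChIP signal was 82.4 RPM (reads per M reads of the library) in the library labelled FAD 1, against 27.5 in FAD 2 and 14.5 and 11.8 in WT, while the inputs held 8.43 to 11.1. In the other table, where 8 of the 15 had regions, the library labelled FAD 1 had 89.4, FAD 2 had 30.9 and the FAD-BIX libraries 20.5 and 19.9. The part of this library's make-up in the results below was not tested, and the gene sums are given with and without it. Where a pair of FAD values is given below, the library labelled FAD 1 comes first.

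The regions of the release genes were small and intronic. Their median width was 327 bp in both tables, near the 329 and 325 bp of all regions, and they ranged from 240 to 836 bp in the first table and from 240 to 1064 bp in the second. By the files' own annotation, 37 of 45 and 45 of 59 lay in introns of the gene, the others outside it, and 0 lay in an exon. Distances were taken to the gene's listed RefSeq start or, where none was listed, to the 5' end of its RefSeq span. So measured, the closest region lay 13895 bp away in the first table, beside Syt1, and 8710 bp away in the second, upstream of Snap25. For Unc13c, the listed start lies inside its span, chr9:73479422-74008155 on the minus strand. Its region at chr9:74013243-74013483, in both tables, lay outside the span and nearer to the span's 5' end than these distances. No region of either table that belonged to a release gene touched the promoter window (250 bases before to 50 after a start) of a release gene. RefSeq windows were matched for 6 of the 10 genes: Syt1, Syt9, Syt10, Rims1, Pclo and Unc13c. The Unc13c window, chr9:73968988-73969287, belongs to a start inside the gene, and the 5' end of its span was not covered.

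The one promoter window that a release-gene region did touch belongs to another gene. The region at chr10:108700026-108700301 (GRCm38), in intron 4 of Syt1, overlapped by 191 bases the window of Gm5136, a gene model inside Syt1. It is shown because a called region of a release gene meets a start site there. The promoters of Syt1 and Rims1 follow for comparison, as windows that no region touched. All 3 lie on the minus strand and are written 5' to 3' from the RefSeq table of GRCm38.p6: Gm5136 at chr10:108700111-108700410, Syt1 at chr10:109010926-109011225 and Rims1 at chr1:22806109-22806408. Capitals mark the bases inside the region in Gm5136, and the dinucleotide CG, the site of DNA methylation, in the other two.
Gm5136: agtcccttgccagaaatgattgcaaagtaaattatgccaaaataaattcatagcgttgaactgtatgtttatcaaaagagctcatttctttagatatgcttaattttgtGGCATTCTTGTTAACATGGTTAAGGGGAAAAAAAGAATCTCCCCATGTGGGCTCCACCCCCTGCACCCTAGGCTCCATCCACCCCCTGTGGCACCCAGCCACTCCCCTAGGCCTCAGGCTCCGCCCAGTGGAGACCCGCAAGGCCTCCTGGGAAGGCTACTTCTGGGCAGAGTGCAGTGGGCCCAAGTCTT
Syt1: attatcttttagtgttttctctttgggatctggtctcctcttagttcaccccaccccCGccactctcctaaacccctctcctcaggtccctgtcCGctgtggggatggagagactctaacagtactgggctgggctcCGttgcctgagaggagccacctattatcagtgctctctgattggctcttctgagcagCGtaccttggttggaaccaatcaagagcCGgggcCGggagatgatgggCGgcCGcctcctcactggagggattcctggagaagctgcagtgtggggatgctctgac
Rims1: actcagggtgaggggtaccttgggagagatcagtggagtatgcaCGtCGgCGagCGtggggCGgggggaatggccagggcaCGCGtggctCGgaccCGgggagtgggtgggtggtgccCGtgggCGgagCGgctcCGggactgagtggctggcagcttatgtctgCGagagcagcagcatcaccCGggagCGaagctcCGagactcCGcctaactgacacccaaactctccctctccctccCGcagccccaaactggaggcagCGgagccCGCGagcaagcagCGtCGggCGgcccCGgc
The letters CG, which read the same on both strands, occurred 3 times in the Gm5136 window, 8 times in this Syt1 window and 26 times in that of Rims1. Among all 32851 windows of this table, 94.6% held at least 1 CG and the median was 7. A second Syt1 window, at chr10:109009062-109009361, held 6, as did that of Unc13c, while Pclo and Syt10 held 35 each and Syt9 held 49. The 1 window overlap was thus seen at a start with few CG. Among the release genes' windows, none of them touched, those of Rims1, Pclo, Syt9 and Syt10 held many and those of Syt1 and Unc13c held 6 or 8. Whether CG content bears on the overlap was not tested. In the region itself, FAD 2 had 20 reads and the library labelled FAD 1 had 5, while the WT libraries had 8 and 18 and the FAD-BIX libraries 2 and 7, and it was called in FAD 2 alone.

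How many regions a release gene held went broadly with its length, though not among the longest of them. Unc13c, which spans 528734 bp, held 10 regions in its RefSeq span in the first table and 17 in the second. Syt1 (513331 bp) held 8 and 9, Rims1 (520187 bp) 7 and 6, Pclo (348560 bp) 7 and 8 and Rims2 (486087 bp) 4 and 4. Syn3 (450181 bp) held 2 and 4, so Syn3 and Rims2 held fewer than the shorter Pclo. Syt9 (178308 bp) held 1 in each. Snap25 (68990 bp), Syt10 (68267 bp) and Syt4 (9608 bp) held 0, so the regions that the tables give to Snap25 and Syt10 all lie outside those genes. Across 21900 protein-coding genes, 11.8% and 13.8% held a region, and length and number of regions had a Spearman rho of 0.35 and 0.36, given as a description, since genes share libraries.

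**Figure D1:**
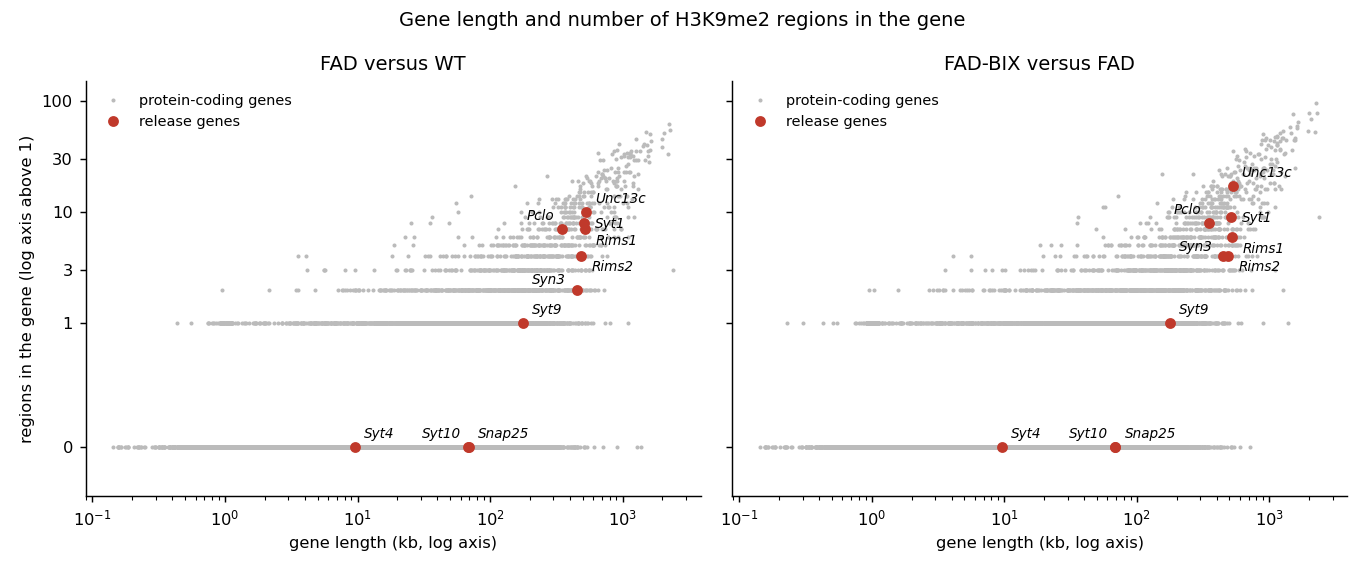
Number of regions within each protein-coding gene (grey points, 21900 genes) against gene length in kilobases, for both tables, with the 10 release genes in red. Both axes are logarithmic, the vertical one above 1. The long genes Unc13c, Syt1, Rims1 and Pclo lie among other genes of their length with several regions, and Snap25, Syt10 and Syt4 lie at 0. Rims2, with 4 and 4, and Syn3, with 2 and 4, are long too but lie lower.

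Among the 281 coding genes at least as long as Syn3 (450181 bp), 95.0% and 97.2% held a region, with medians of 10 and 14 and an overall 17.4 and 23.6 regions per Mb. Unc13c held 18.9 and 32.2 regions per Mb and Syt1 15.6 and 17.5. Pclo, which is shorter, held 20.1 and 23.0. Rims1 had 13.5 and 11.5 and Rims2 8.23 in both tables, so the pair of RIM genes, whose products tether calcium channels at the active zone, held fewer per Mb than Unc13c, Syt1 and Pclo in both tables. Among 3892 genes within 1.5 times the length of Syt4, only 3.29% and 4.14% held a region, and among 2980 within 1.5 times that of Snap25, 16.5% and 20.2% did.

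Syn3, which encodes a synapsin that coats vesicles, has no region under its own name in either table. By RefSeq coordinates its span, chr10:86048746-86498926, held 2 regions in the first table and 4 in the second (4.44 and 8.89 per Mb, below the 17.4 and 23.6 of the genes at least as long), which the files give to Timp3, a gene inside Syn3, to no named gene or to a place between genes. The region labelled Timp3, at chr10:86271070-86271400, held 20 reads in FAD 2 and 8 in the library labelled FAD 1, while the WT libraries had 5 and 16 and the FAD-BIX libraries 6 and 7. The other region found in both tables, at chr10:86100776-86101216, held 25 reads in FAD 2 and 6 in the library labelled FAD 1, while the WT libraries had 6 and 10 and the FAD-BIX libraries 10 and 12. FAD 2 was the highest library in both. In the regions found only in the second table, FAD-BIX 2 was the highest. At chr10:86154587-86154873 it held 19 reads, against 8 in FAD-BIX 1, 10 in FAD 2 and 5 in the library labelled FAD 1. At chr10:86211545-86211845 it held 19 too, against 6, 7 and 13 in the same order. The reads of the Syn3 span entered the sum of no release gene.

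Nearly all regions were called in a single library. Of the 45 regions in the first table, 44 were called in 1 library alone (97.8%, against 94.9% of all regions), and of the 59 in the second, 55 were (93.2%, against 93.4%). FAD 2 alone called 29 of the 45 (64.4%, against 60.3% of the whole table) and 28 of the 59 (47.5%, against 44.9%). In those 29 regions the signal was 3.15 RPM per kb of region in FAD 2, 1.17 in the library labelled FAD 1, and the WT libraries had 1.05 and 1.08. In the 8 regions that WT 1 alone called, it was 2.54 in WT 1, 1.29 in WT 2, 1.18 in FAD 2 and 1.36 in the library labelled FAD 1. Taken by class, the regions were highest in the library that called them, in both tables, and in the first table the 3 other libraries of a class lay near each other, apart from the 4 regions that only the library labelled FAD 1 called, where FAD 2 had 2.05. The sums compared next are sums over regions chosen in this way.

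**Figure D2:**
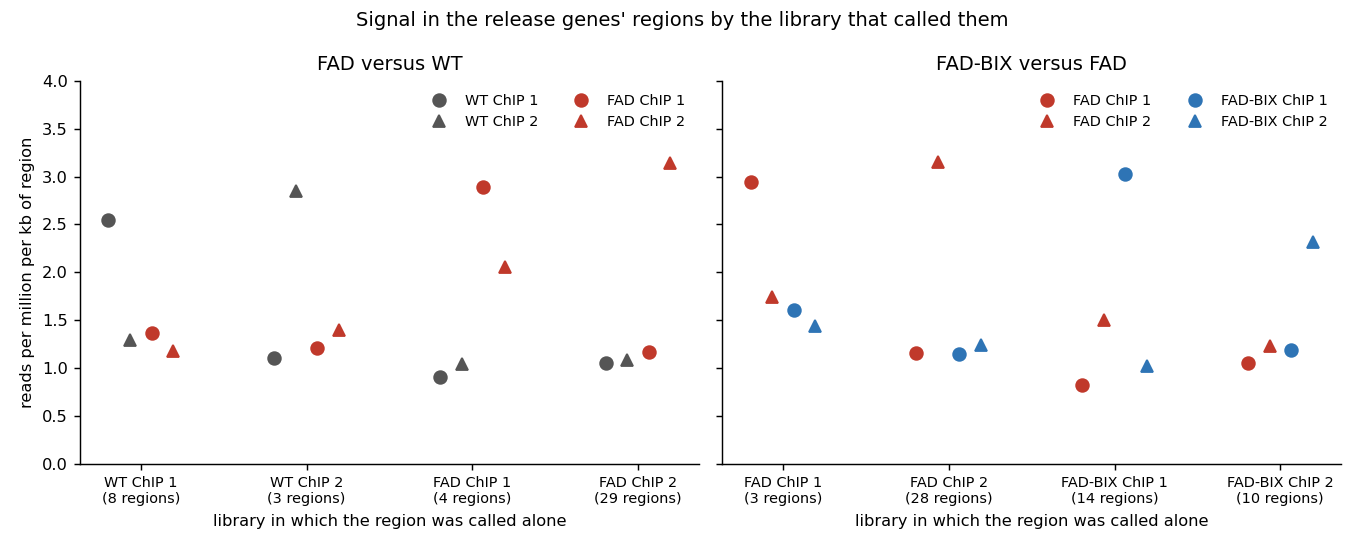
Signal (RPM per kb) of the release genes' regions in the 4 ChIP libraries of each table, with regions grouped by the library in which they were called alone. Circles are replicate 1 and triangles replicate 2. The calling library lies highest in each class, between 2.32 and 3.16.

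Summed over all release-gene regions, FAD 2 stood above the other libraries before scaling between libraries. In the first table the signal was 1.34 RPM per kb in the library labelled FAD 1 (556 reads), 2.61 in FAD 2 (905 reads) and 1.33 and 1.24 in WT (543 and 549 reads). Over the whole table FAD 2 was likewise the highest, with 2.92, while the library labelled FAD 1 had 1.70 and the WT libraries 1.58 and 1.70. In the second table the library labelled FAD 1 had 1.17, FAD 2 had 2.36 and the FAD-BIX libraries 1.69 and 1.45, against 1.57, 2.61, 1.82 and 1.73 over the whole table. The log2 ratio of ChIP to input, computed from RPM with the 1 read that the authors add to each count, was 1.12 and 2.13 in the FAD libraries and 0.97 and 0.76 in the WT libraries. Over the second table's regions, this ratio was 0.94 and 1.85 in FAD and 1.34 and 1.18 in FAD-BIX. ChIP exceeded input in each of these libraries, and the FAD libraries differed from each other by more than their mean differed from that of the other group. Without the regions that FAD 2 alone called, the group means went from 1.62 in FAD and 0.87 in WT to 1.45 and 1.42. In the second table they went from 1.39 in FAD and 1.26 in FAD-BIX to 1.13 and 1.67. Most of the regions left had been called in a WT or FAD-BIX library alone, so this choice favours those groups. With 2 mice a group, an exact permutation test cannot go below p = 0.33.

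**Figure D3:**
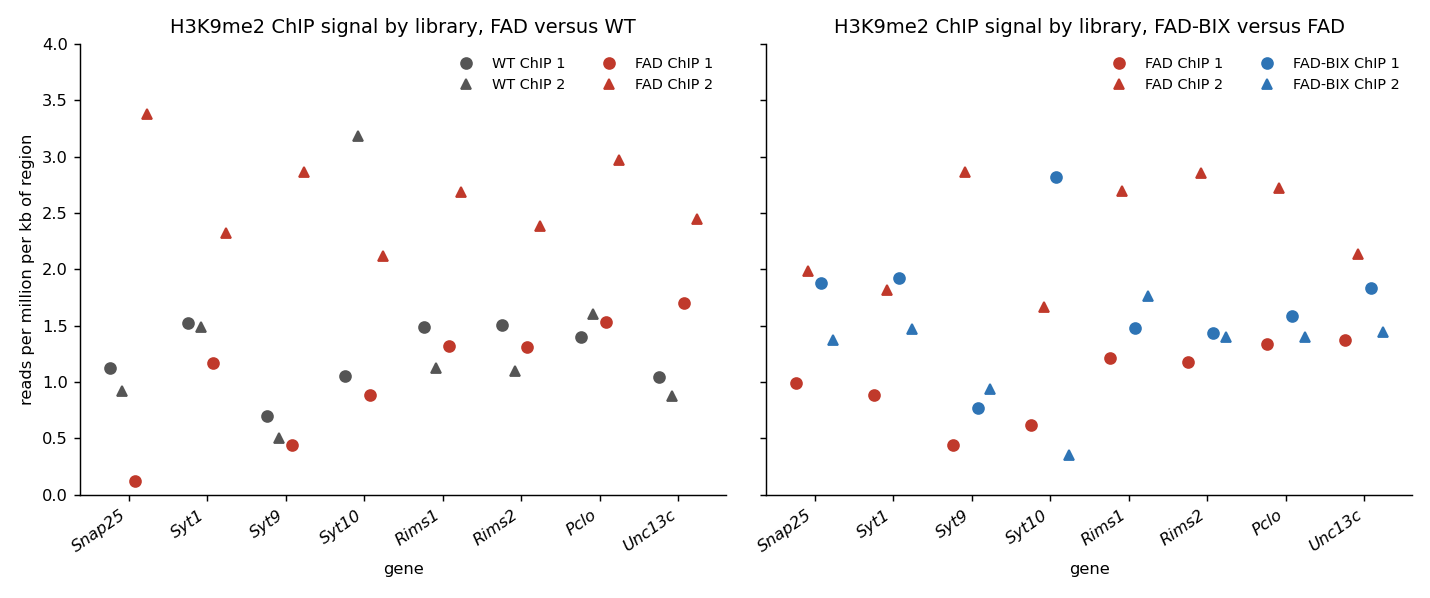
Signal (RPM per kb of region) of each release gene in each ChIP library, for both tables. Circles are replicate 1 and triangles replicate 2, coloured by group. FAD 2 lies above the library labelled FAD 1 for all 8 genes in both panels, and is the highest library for 7 of 8 in the first and 6 of 8 in the second.

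For FAD against WT, the sum of no release gene passed the test after adjustment. Of 7 genes tested, 0 had an adjusted p under 0.05 (edgeR's quasi-likelihood test with trimmed-mean (TMM) scaling and Benjamini-Hochberg adjustment over 3795 genes), and 0% of all genes did. At an unadjusted p under 0.05, 0 of the 7 were higher and 0 lower, against 1.29% and 3.19% of all genes, and DESeq2 likewise called 0 of the release genes after adjustment. The median log2 fold of the 7 was -0.03, against 0.01 for all genes. With library totals in place of TMM, the median of all genes moved to 0.61 and that of the 7 to 0.62. The split at an unadjusted p under 0.05 then went from 49 higher and 121 lower to 88 higher and 8 lower genes, so a direction below is relative to the other genes of the table. The smallest adjusted p of a release gene under any alternative, over both comparisons and the named regions, was 0.292. A p that misses the threshold does not show that the groups are alike.

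Unc13c, which encodes a Munc13 protein that primes vesicles for fusion, had both FAD libraries above both WT libraries, the only one of the 7 tested release genes with groups that did not overlap. Before scaling between libraries, 33.7% of all 3795 genes were higher in FAD in this way and 3.43% lower, so that 1 of 7 is no more than the table as a whole shows. FAD 2 had 2.45 RPM per kb (173 reads) and the library labelled FAD 1 had 1.70 (144 reads), against 1.05 and 0.875 in WT (87 and 79 reads). The means were 2.08 ± 0.530 in FAD and 0.961 ± 0.121 in WT (SD, n = 2). The log2 fold by edgeR was 0.56 ± 0.27 (SE; unadjusted p = 0.0658, adjusted p = 0.929), and it was positive under each alternative, at 1.11 ± 0.57 with library totals. Without the library labelled FAD 1 it was 0.31 ± 0.38, and without FAD 2 it was 0.76 ± 0.38. Of its 11 regions, 7 were called in FAD 2 alone, 3 in the library labelled FAD 1 alone and 1 in WT 1, so the FAD reads that make the sum high also put 10 of the 11 in the table. Over the 4 regions that FAD 2 did not call, 3 of them called in the library labelled FAD 1, the log2 fold was 1.04 ± 0.47. Its edgeR unadjusted p was 0.0280 and its adjusted p 0.717, and 87 of the 2030 genes in that fit were higher at an unadjusted p under 0.05. The one with the smallest p, at chr9:73699865-73700270 in intron 10, held 24 reads in the library labelled FAD 1, 14 in FAD 2, and 5 and 4 in the WT libraries (log2 fold 1.75 ± 0.79, edgeR adjusted p = 0.849). The region with most reads, at chr9:73889685-73890130 in intron 2, held 11, 28, 11 and 14 in the same order, a log2 fold of 0.15 ± 0.54.

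Syt1, the vesicle calcium sensor for fast release in cortex, had a negative log2 fold under TMM and a positive one under library totals. FAD 2 had 2.32 RPM per kb (149 reads) and the library labelled FAD 1 had 1.17 (90 reads), against 1.52 and 1.49 in WT (115 and 122 reads). The WT values lay between those of FAD, so the groups overlapped. The log2 fold was -0.40 ± 0.25 (edgeR, unadjusted p = 0.136, adjusted p = 0.929), -0.42 ± 0.37 without the library labelled FAD 1, and 0.21 ± 0.56 with library totals. Of its 9 regions, 1 had an unadjusted p under 0.05. At chr10:108919193-108919637, in intron 2, FAD 2 had 6 reads and the library labelled FAD 1 had 8, against 25 and 13 in WT, a log2 fold of -1.82 ± 0.68 (edgeR unadjusted p = 0.0235, adjusted p = 0.832). It was called in WT 1 alone, so the WT reads that make the difference also put it in the table. The region with most Syt1 reads, at chr10:108666055-108666479 in intron 5, was called in WT 2 alone. It held 16 and 12 reads in the FAD libraries and 11 and 27 in the WT libraries (log2 fold -0.76 ± 0.60). The regions at chr10:108615833-108616092 and chr10:108705409-108705788 were called in WT 1 alone too, with log2 folds of -1.13 and -1.27. The other Syt1 regions were called in FAD 2 alone, and where tested their folds ran from -0.56 to 0.68.

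The active zone scaffold genes differed by less than the spread between mice. Pclo, which encodes the large scaffold piccolo, had 1.53 RPM per kb in the library labelled FAD 1, 2.97 in FAD 2 and 1.40 and 1.60 in WT, and its log2 fold was -0.03 ± 0.24. Rims1 had 1.32, 2.69, 1.49 and 1.12 in the same order, with a log2 fold of -0.01 ± 0.26. Rims2 had 1.31, 2.39, 1.503 and 1.10, with -0.09 ± 0.31. In all 3, FAD 2 alone stood out and the groups overlapped, and all 3 folds turned positive with library totals, at 0.58, 0.62 and 0.50. Without the library labelled FAD 1, the TMM folds of Pclo and Rims2 were -0.06 and -0.16, and that of Rims1 was just positive, at 0.0015. Pclo held the other region with an unadjusted p under 0.05. It lies in intron 22 at chr5:14853415-14853750, was called in WT 2 alone, and held 6 reads in FAD 2 and 9 in the library labelled FAD 1, against 10 and 28 in WT (log2 fold -1.64 ± 0.70, edgeR unadjusted p = 0.0408, adjusted p = 0.832). WT 2 alone was high there, and WT 1 lay beside the FAD libraries.

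The widest region of the first table's release genes was in Pclo too, at chr5:14697602-14698438 in intron 6, with 37 and 56 reads in the FAD libraries and 37 and 38 in the WT libraries, a log2 fold of -0.12 ± 0.42. The regions of Rims1 with most reads and with the smallest p both lie in intron 1. At chr1:22741273-22741898 reads were 26 and 37 in the FAD libraries and 28 and 20 in the WT libraries (log2 fold -0.05 ± 0.45), and at chr1:22751232-22751650 they were 13 and 19 in the FAD libraries and 21 and 19 in the WT libraries (-0.75 ± 0.49). Rims2 had 20 and 22 reads in the FAD libraries and 23 and 19 in the WT libraries at chr15:39486474-39486869 in intron 15 (-0.40 ± 0.48), the only release-gene region of this table called in more than 1 library, FAD 2 and WT 1. Its region at chr15:39601132-39601611, in intron 21, held 19 and 13 in the FAD libraries and 28 and 15 in the WT libraries (-0.79 ± 0.60). None of these had an unadjusted p under 0.05.

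Snap25, Syt9 and Syt10 each rested on 1 region. Snap25, a SNARE protein of the presynaptic membrane, had a region 14651 bp upstream of its start at chr2:136698624-136698951, with 1 read in the library labelled FAD 1, 23 in FAD 2 and 9 and 8 in WT. Its FAD values, 0.123 and 3.38 RPM per kb, lay on either side of the WT values of 1.12 and 0.920, and its log2 fold of -0.08 ± 0.95 became 0.68 without the library labelled FAD 1 and -2.97 without FAD 2. Syt9, another calcium sensor of vesicles, had a region in intron 3 at chr7:107487658-107488481, with 9 and 49 reads in the FAD libraries and 14 and 11 in the WT libraries. Its log2 fold of 0.67 ± 0.66 was 1.21 without the library labelled FAD 1 and -0.51 without FAD 2, so FAD 2 set its direction. Syt10, a synaptotagmin best known from secretory granules of the olfactory bulb, had too few reads for the test: its region, at chr15:89743419-89743691 beyond the far end of the gene, held 6 and 12 in the FAD libraries and 7 and 23 in the WT libraries.

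By region, 2 of 36 tested release-gene regions had an unadjusted p under 0.05 and were lower in FAD, and 0 were higher. Among all 27778 regions tested, 4.97% were lower and 0.918% higher at that level, and 0 release-gene regions and 0% of all regions passed after adjustment. The median log2 fold was 0.19 over the 36, of which 20 were positive, and 0.01 over all. In the authors' deposited table, 2 of the 45 had a p under 0.05, against 2.67% of all regions, and the smallest was 0.00501, with a q of 1. Both lie in Syt1, and their edgeR log2 folds were -1.13 and 0.15.

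For FAD-BIX against FAD, Syt1 had the largest log2 fold of the release genes and the only unadjusted p under 0.05, and no sum passed after adjustment. Of 7 tested, 0 had an adjusted p under 0.05 by edgeR, over 4096 genes of which 0% did, and DESeq2 likewise called 0 of them. At an unadjusted p under 0.05, 1 was higher and 0 lower, against 2.95% and 2% of all genes. Before scaling between libraries the groups overlapped in all 7, while 6.86% of all genes were higher and 19.8% lower in FAD-BIX with no overlap. The median log2 fold was 0.08, against 0.00 for all genes. With library totals the median of all genes moved to -0.30 and that of the 7 to -0.26, and the split at that level went from 121 higher and 82 lower to 6 higher and 55 lower genes. This comparison and the one before share the FAD libraries, so a low FAD value raises one fold and lowers the other.

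Syt1 had 1.92 and 1.47 RPM per kb in FAD-BIX (162 and 133 reads), against 1.82 in FAD 2 (156 reads) and 0.885 in the library labelled FAD 1 (91 reads). FAD 2 lay between the FAD-BIX libraries, so the groups overlapped and the library labelled FAD 1 was the low one. The log2 fold was 0.65 ± 0.25 (edgeR, unadjusted p = 0.0162, adjusted p = 0.841), and 0.33 ± 0.49 with library totals. Without the library labelled FAD 1 it was 0.56 ± 0.30, and without FAD 2 it was 0.75 ± 0.32. Without FAD-BIX 1 it was 0.44 ± 0.34, and without FAD-BIX 2 it was 0.83 ± 0.34. Over the regions that overlap the gene it was 0.52 ± 0.27 (edgeR unadjusted p = 0.0746). ChIP over input gave 0.41 ± 1.04 (limma unadjusted p = 0.701). A replicate block gave 0.65 ± 0.26 (edgeR unadjusted p = 0.0180), and DESeq2 gave 0.67 ± 0.32 (unadjusted p = 0.0351). Leaving out the regions that FAD 2 alone called gave 0.70 ± 0.31 (edgeR unadjusted p = 0.0257). Of the 12 Syt1 regions, 7 were called in a FAD-BIX library alone and 4 in FAD 2 alone, so most entered the table through the group that is high. The region with the smallest p, at chr10:108817689-108818064 in intron 4, was called in FAD-BIX 2 and held 14 and 15 reads in FAD-BIX, against 4 in FAD 2 and 6 in the library labelled FAD 1 (log2 fold 1.88 ± 0.91, edgeR adjusted p = 0.897). The Syt1 region with most reads, at chr10:108575619-108576073 in intron 10, held 17 and 22 in FAD-BIX, against 29 in FAD 2 and 12 in the library labelled FAD 1 (log2 fold 0.40 ± 0.53). Some Syt1 regions were high in 1 mouse only: at chr10:108960761-108961143, in intron 2, FAD-BIX 1 had 30 reads and FAD-BIX 2 had 4, and at chr10:109045506-109045864, outside the gene, they had 8 and 24.

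**Figure D4:**
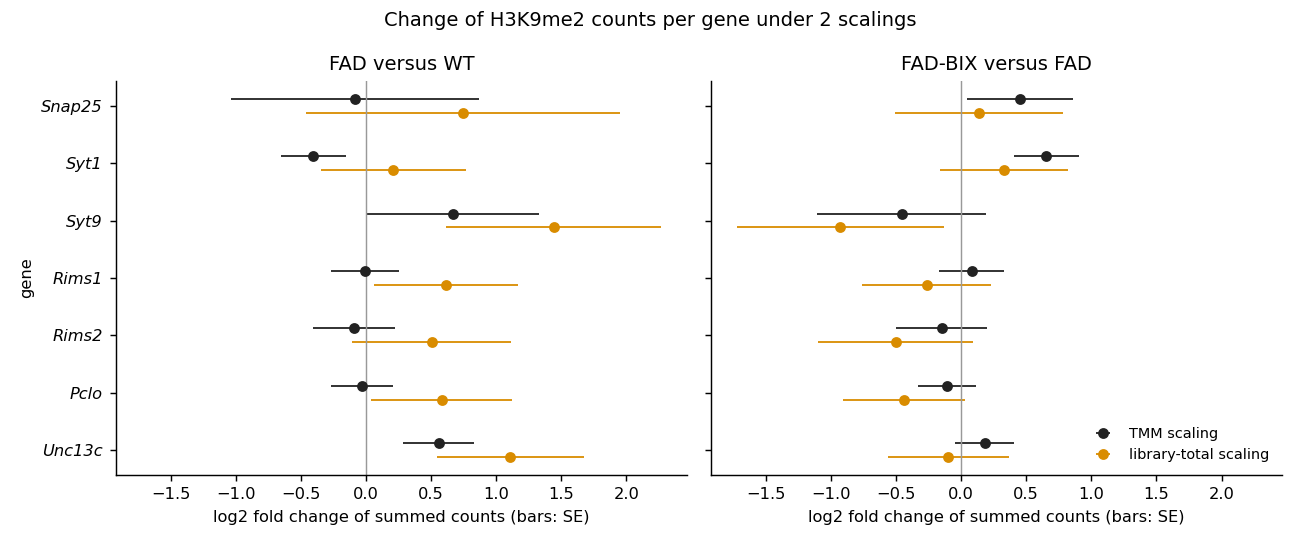
Log2 fold change of summed ChIP counts of the 7 tested release genes in both comparisons, with the SE from edgeR as bars, under TMM scaling (black) and library totals (orange). Library totals move all 7 genes to the right in FAD against WT, where all are then above 0, and all 7 to the left in FAD-BIX against FAD.

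Unc13c, whose FAD values lay above those of WT, had overlapping values in FAD-BIX and FAD. It had 1.83 and 1.44 RPM per kb in FAD-BIX (210 and 178 reads), 2.13 in FAD 2 (249 reads) and 1.37 in the library labelled FAD 1 (192 reads). Its log2 fold was 0.18 ± 0.23, 0.28 ± 0.27 without the library labelled FAD 1, and -0.10 ± 0.47 with library totals. It gained most regions between the tables, 18 against 11, of which 8 were called in a FAD-BIX library alone. At chr9:73739993-73740243, in intron 8, 17 and 12 reads in FAD-BIX stood against 7 in FAD 2 and 2 in the library labelled FAD 1 (log2 fold 2.15 ± 0.98, edgeR unadjusted p = 0.0400, adjusted p = 0.897), and FAD-BIX 1 had called it. The intron 2 region at chr9:73889685-73890130 held 16 in each FAD-BIX library, against 11 and 28 in FAD.

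Of the scaffold genes, Pclo had 1.59 and 1.40 RPM per kb in FAD-BIX, and 1.33 and 2.73 in FAD, a log2 fold of -0.11 ± 0.22. Rims1 had 1.48 and 1.76 against 1.21 and 2.69, with 0.08 ± 0.25, which became -0.26 with library totals. Rims2 had 1.43 and 1.40 against 1.17 and 2.85, with -0.15 ± 0.35. The FAD-BIX values of all 3 lay between those of the FAD libraries, and without the library labelled FAD 1 the folds were -0.20, -0.06 and -0.34. Rims1 held a region with an unadjusted p under 0.05 in intron 9, at chr1:22517695-22518243, with 11 and 27 reads in FAD-BIX, against 10 in FAD 2 and 7 in the library labelled FAD 1 (log2 fold 1.57 ± 0.66, edgeR unadjusted p = 0.0281, adjusted p = 0.897). FAD-BIX 2, which called it, was the high library. The most-read regions of Rims1, at chr1:22741273-22741898, and Rims2, at chr15:39486573-39486869, had log2 folds of -0.02 ± 0.47 and -0.11 ± 0.57. Pclo held the only release-gene region called in both FAD-BIX libraries, at chr5:14603357-14603752 in intron 3, with 17 and 18 reads in FAD-BIX against 10 and 8 in FAD and 0 in each FAD-BIX input (log2 fold 1.33 ± 0.65, edgeR adjusted p = 0.897). In the authors' deposited table this was the only release-gene region with a p under 0.05, at 0.00480 with a q of 1, as against 2.09% of all regions. The Pclo region in intron 6, here chr5:14697602-14698666, was again the one with most reads, 37 and 43 in the FAD-BIX libraries and 40 and 61 in the FAD libraries.

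Snap25 had 3 regions in this table, all upstream of the gene. Its sum was 1.88 and 1.37 RPM per kb in FAD-BIX (42 and 33 reads), and 0.991 and 1.98 in FAD (27 and 45 reads), a log2 fold of 0.45 ± 0.40, or 0.38 ± 0.56 without the library labelled FAD 1. The groups overlapped. The region 8710 bp from its start, at chr2:136704479-136704978, held 30 and 12 reads in the FAD-BIX libraries and 17 and 16 in the FAD libraries (log2 fold 0.74 ± 0.58). Syt9 had 13 and 17 reads in FAD-BIX against 9 and 49 in FAD, and its log2 fold of -0.46 ± 0.65 became 0.77 without FAD 2 and -1.07 without the library labelled FAD 1. Syt10 was not tested, and its region at chr15:89745645-89745905 held 15 and 2 reads in the FAD-BIX libraries and 4 and 9 in the FAD libraries.

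By region, 2 of 35 tested release-gene regions had an unadjusted p under 0.05 and were higher in FAD-BIX, in Rims1 and Unc13c, and 0 were lower. Among all 31055 regions tested, 3.93% were higher and 1.18% lower at that level. After adjustment 0 release-gene regions and 0% of all regions passed, and the median log2 fold was 0.10 over the 35 and 0.03 over all.

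WT and FAD-BIX are in different tables, but the tables share regions. Of the release-gene regions, 34 of the 45 and 34 of the 59 matched between the tables at 50% reciprocal overlap, and 31 had identical limits. Of these, 27 were called in FAD 2 alone in both tables, so no WT or FAD-BIX library had called them. WT and FAD-BIX reads still bear on this set, since it leaves out regions high enough in those groups to be called there. In FAD 2, the library that called the 27 regions, their signal was 3.14 RPM per kb, and the library labelled FAD 1 had 1.12. WT had 0.994 and 1.05, and FAD-BIX 1.12 and 1.22. The means were 1.02 ± 0.038 in WT and 1.17 ± 0.074 in FAD-BIX (SD, n = 2), a log2 ratio of 0.19. Both FAD-BIX libraries lay above both WT libraries, and the two-sided exact permutation p was 0.33, the smallest this design allows. All 18524 regions chosen in the same way had WT values of 1.14 and 1.29 and FAD-BIX values of 1.36 and 1.26, a log2 ratio of 0.10, and these groups overlapped (exact permutation p = 0.667). The inputs over the 27 regions were 0.720 and 0.627 in WT, 0.511 and 0.446 in FAD and 0.657 and 0.549 in FAD-BIX.

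**Figure D5:**
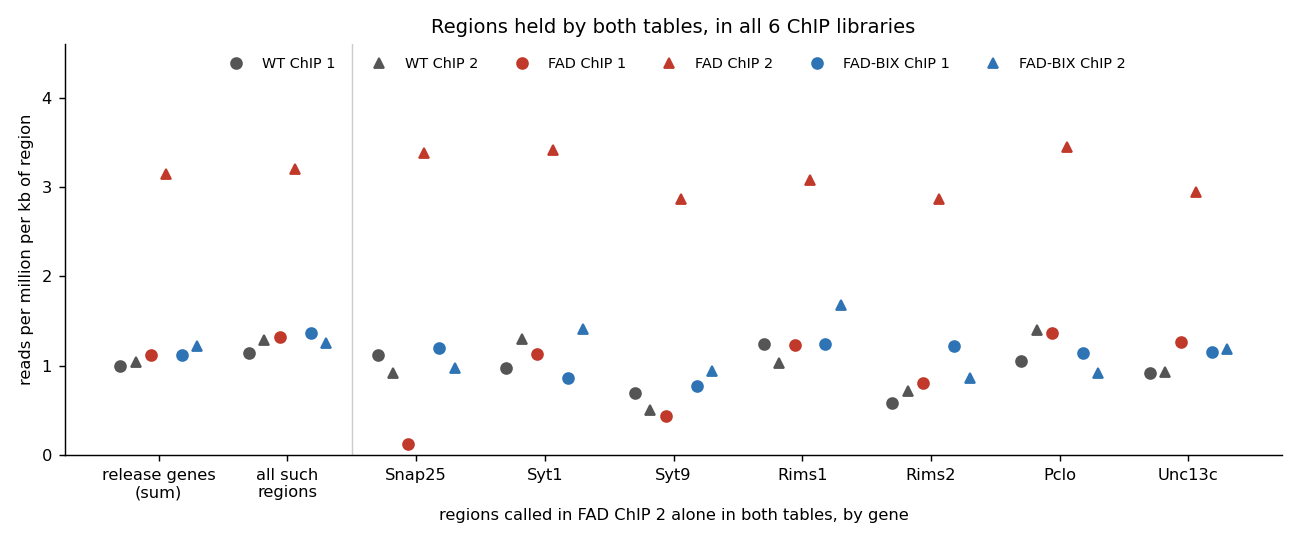
Signal (RPM per kb) in the 6 ChIP libraries over the regions with identical limits that were called in FAD 2 alone in both tables: 27 regions of release genes, all 18524 such regions, and the 27 by gene. Circles are replicate 1 and triangles replicate 2. FAD 2 stands at 2.86 or above, and the other 5 libraries lie at 1.68 or below.

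By gene, these shared regions did not move one way from WT to FAD-BIX. In Unc13c, with 7 regions, WT had 0.925 and 0.936 and FAD-BIX 1.15 and 1.19 RPM per kb, and the library labelled FAD 1 had 1.26. In Rims2, with 2 regions, WT had 0.585 and 0.718 and FAD-BIX 1.23 and 0.868. Rims1 and Syt9 likewise had both FAD-BIX libraries above both WT libraries, by log2 ratios of means of 0.36 and 0.52, Rims1 by a margin of 1.242 against 1.241 at its closest and Syt9 in 1 region. These are 4 of 7 genes, while 20.2% of the 3181 genes with such regions had both FAD-BIX libraries above both WT libraries and 11.5% had both below, and that difference was not tested. In Pclo, with 6 regions, WT had 1.05 and 1.40 and FAD-BIX 1.15 and 0.920, a log2 ratio of -0.25. In Syt1, with 4 regions, the means were 1.14 in both groups, and Snap25 had 1.02 and 1.08. Another Syt1 region with identical limits, at chr10:108575619-108576073, was left out because FAD-BIX 2 had called it too. It held 10 and 8 reads in WT and 17 and 22 in FAD-BIX, so the equal means of Syt1 hold only for this choice of regions. For single genes the exact permutation p was 0.33 at best.

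None of the other genes of the release pathway tested passed after adjustment by edgeR in either comparison. Of 96 such genes, 21 had a region in the first table and 22 in the second, and 20 were tested in each. In FAD against WT, 0 of the 20 had an unadjusted p under 0.05, 10 were positive, and the median log2 fold was -0.01. Itsn2, an endocytic scaffold, had the smallest p, with 10 and 5 reads in the FAD libraries and 19 and 15 in the WT libraries (log2 fold -1.48 ± 0.73, edgeR adjusted p = 0.929). In FAD-BIX against FAD, 2.95% of all 4096 genes were higher and 2% lower at that level, and 2045 were positive. Of the 20, 14 were positive, the median was 0.12, and 1 was higher at that level. That gene was Ppfia2, a liprin that binds RIM proteins at the active zone, with 175 and 188 reads in FAD-BIX against 147 in FAD 2 and 126 in the library labelled FAD 1 (log2 fold 0.76 ± 0.23, edgeR unadjusted p = 0.00442, adjusted p = 0.841). By role, SNARE proteins and their regulators had 3 of 16 genes with a region in each table, other synaptotagmins and C2-domain sensors 4 of 24, active zone scaffold and priming genes 5 of 22, and synaptic vesicle proteins 4 of 18. Endocytosis genes had 5 of 16 in the first table and 6 in the second. These counts include regions outside the gene. Counted as the lists were, 4343 named genes had a region in the first table and 4913 in the second. By the narrower count of regions within the gene, 11.8% and 13.8% of 21900 protein-coding genes held one. The lists were not counted in that narrower way, so their shares cannot be set against it.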

How the data were processed

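H3K9me2 ChIP and input were sequenced from the prefrontal cortex of 6 mice (12 libraries; 50 bp single-end or 150 bp paired-end reads, with no statement of which library had which). The submitters' processing notes name FastQC, Trimmomatic, BWA 0.7.12, MACS2 2.1.0 and the build mm9. Coordinates are those of the files, and since 99.7% of 3517 and 4010 genes matched by symbol overlapped the same gene in GRCm38, they are given as GRCm38. Whether the files count from 0 or 1 is not stated.

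Per the file headers, the deposited counts are reads per region and library. The deposited RPM equalled the count plus 1, scaled by a constant that gave the library total. The authors' deposited log2 fold changes, p-values and q-values, and their marks of the calling library, accompany them, and 8 per-sample columns of fold enrichment were not used. Regions carry calls of single libraries, so the reads compared also decide which regions are present. RPM per kb given here uses the counts without the added 1.

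One row per region was kept. Counts were summed per gene over all named genes (a region overlapping 2 genes entered both), fitted in edgeR 4.0.16 (R 4.3.3; quasi-likelihood, TMM, default filter, 4 ChIP libraries per table) and adjusted by Benjamini-Hochberg with a threshold of 0.05; regions were fitted likewise. The SE is the absolute log2 fold over the square root of F. The samples of a group are separate mice per the labels' protocols. Alternatives were library totals, DESeq2 1.42.0 and its size factors, no filter, a replicate block, ChIP over input in limma 3.58.1, gene-overlapping regions only, regions other than those FAD 2 called alone, and leaving out each library. The steps were tested on simulated data. Exact permutation tests used SciPy 1.17.1. Same-numbered libraries of the groups deviated from their group means with correlations of 0.06 and -0.05 over genes, from 2 pairs each, so no pairing was taken. No batch is labelled.

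All members were named, each with its region of smallest p and of most reads, and for the other release genes at most 2 per direction and table were eligible. The members and lists were chosen with earlier results of these data known. Of the listed cortical neuron and glial genes, 3 of 7 and 2 of 6 had a region in the first table. Only 3 neuron genes and 1 glial gene were tested in each table, and 0 had an unadjusted p under 0.05 by edgeR. Of the heart muscle genes, 5 were tested in each table. At that level 3 were higher in FAD than in WT and 3 lower in FAD-BIX than in FAD, against 1.29% and 2% of all genes.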

Additional observations from a re-analysis of the deposited data

How the results depend on the processing

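No release gene and none of their regions named here passed an adjusted p of 0.05 under any alternative. Over the 37 named gene sums and regions, 322 of 369 alternative values kept their direction and 47 reversed. What more depth would change was not tested. Of the release-gene regions, 36 of 45 and 35 of 59 had enough reads for the test.

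Library totals reversed 5 of 7 gene folds in FAD against WT and 2 of 7 in FAD-BIX against FAD. In FAD against WT they gave log2 folds of 0.75 for Snap25, 0.21 for Syt1, 0.62 for Rims1, 0.50 for Rims2 and 0.58 for Pclo, and a median of 0.62 over the release genes. ChIP over input gave 0.28, 0.054, 0.94, 1.03 and 0.59 for the same genes and a median of 0.94. By region, library totals gave 0.50 for the Pclo intron 6 region, 0.57 for the Rims1 region with most reads, 0.17 for the Rims2 intron 15 region and 0.75 for the Snap25 region. In FAD-BIX against FAD they gave -0.26 for Rims1 and -0.098 for Unc13c, and -0.26, -0.019 and -0.23 for the most-read regions of Pclo, Syt1 and Unc13c. ChIP over input gave -0.37 for Rims1 and -0.24 for Unc13c.

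Counts of called genes over the whole table, 0 as reported, were 2 with library totals, 1 with DESeq2 and 13 without the regions FAD 2 called alone in FAD against WT, and 3, 0 and 6 in FAD-BIX against FAD, where leaving out the filter gave 12. Called regions were 2 and 4 with library totals, and 17 without a filter in the second comparison. With a replicate block, which the labels do not establish as a pairing, 2 genes were called in each comparison, no release gene among them, and Rims1 moved to 0.0086 in the first. Restricting to regions overlapping the gene moved Rims1 to -0.10 in FAD-BIX against FAD, and leaving out regions FAD 2 called alone moved Rims2 to 0.00054 in FAD against WT. The mean log2 ChIP over input of the release genes was 1.03 in WT and 1.60 in FAD-BIX with no read added, and 1.42 and 1.67 without the regions FAD 2 called alone, against 0.87 and 1.26 as reported. Without those regions FAD went from 1.62 to 1.45 in the first table and from 1.39 to 1.13 in the second. Most of the regions left were called in a WT or FAD-BIX library alone, so this choice of regions favours those groups.

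Leaving out each library in turn gave 0 to 31 called genes and 0 to 119 regions in FAD against WT, and 12 to 24 genes and 12 to 26 regions in FAD-BIX against FAD. The highest counts of the first comparison came without the library labelled FAD 1, and those of the second without FAD 2 (24 genes) and without the library labelled FAD 1 (26 regions). Gene log2 folds in FAD against WT ranged from -2.97 to 0.68 for Snap25, -0.51 to 1.21 for Syt9, -0.23 to 0.19 for Rims1, -0.33 to 0.13 for Rims2 and -0.14 to 0.036 for Pclo. In FAD-BIX against FAD they ranged from -1.07 to 0.77 for Syt9, -0.065 to 0.23 for Rims1, -0.34 to 0.083 for Rims2 -0.013 to 0.33 for Unc13c and 0.44 to 0.83 for Syt1. By region, the first comparison gave -0.40 to 0.33 for the Rims1 region with most reads, -0.38 to 0.64 for Snap25, -0.50 to 1.17 for Syt9 and -0.20 to 0.38 for the intron 2 region of Unc13c. The second gave -0.0087 to 0.15 for the Pclo intron 6 region, -0.37 to 0.20 for that of Rims1, -0.13 to 1.25 for Snap25, -1.06 to 0.73 for Syt9 and -0.16 to 0.54 for Unc13c. A lone library left in a group is assumed to vary like the other group. The cause of these shifts was not tested.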
